A study of Homo sapiens with 14 samples.

Results

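MicroRNA host genes are the transcription units from which many microRNAs are cut, and those studied here are the genes whose symbol begins with MIR and ends with HG in the deposited gene tables. There were 64 such genes among 28307 gene symbols. RNA was measured by polyA-selected, stranded sequencing in A375, an established human melanoma cell line, in 14 libraries of 5 groups that differ in ZC3H18 (Z18), a nuclear RNA-binding protein of the RNA surveillance machinery. Bulk control cells (n = 3) were transfected with a Cas9 vector that had no guide RNA, and bulk CRISPR cells (n = 3) with a vector that also carried a guide against Z18. Both were selected with puromycin and sequenced as mixed populations. The clones were grown from single cells by limiting dilution: WT clones (n = 2) came from cells given the Cas9 vector with no guide, -/+ clones (n = 3) had lost 1 copy of Z18, and trunc/+ clones (n = 3) carried 1 truncating allele. Only 1 of the trunc/+ clones was made by homology-directed repair, and the other two carry other truncating mutations, so the group is not 1 allele. Each clone was 1 library, and a mixed population can hold unedited cells. The question put to these genes was whether the level of a host transcript changes when Z18 is edited, lost on 1 copy or truncated. The bulk CRISPR was done in triplicate and each clone was grown on its own, and p-values cover the spread of these libraries. In a mixed population, fewer cells with a transcript and less of it per cell cannot be told apart.

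A microRNA begins as a hairpin in a longer capped RNA, the primary transcript. In the nucleus the Microprocessor, made of DROSHA and DGCR8, cuts the hairpin out, DICER1 trims it in the cytoplasm, and an Argonaute protein holds the mature strand of about the length printed below. The hairpin may lie in an intron, so that the spliced host RNA survives, or in an exon, so that cutting destroys the host RNA. SRRT (ARS2) links the cap-binding complex to the Microprocessor and also to RNA decay, which is where Z18 is known to act. The host RNA therefore reads out transcription, splicing, processing and decay together, and the mature microRNAs were not measured in these libraries.

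Of the 64 host genes, 56 had at least 1 precursor of the RefSeq microRNA table inside their span on the same strand, 93 precursors in all. By GENCODE release 44, which holds 62 of the host genes, 44 of these precursors overlapped an exon of their host and 42 lay in introns. The mature strands of the hosts that carry the results are shown here from the RefSeq table, because they say which microRNAs each host RNA stands for. Capitals mark the seed, bases 2 to 8, with which a microRNA finds its targets.
miR-100-5p, from MIR100HG: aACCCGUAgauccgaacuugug
miR-99a-5p, from MIR99AHG: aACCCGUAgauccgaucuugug
let-7a-5p, from MIR100HG and MIRLET7BHG: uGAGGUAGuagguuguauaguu
let-7c-5p, from MIR99AHG: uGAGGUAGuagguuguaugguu
miR-125b-5p, from MIR100HG and MIR99AHG: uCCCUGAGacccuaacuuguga
miR-17-5p, from MIR17HG: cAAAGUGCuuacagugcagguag
miR-20a-5p, from MIR17HG: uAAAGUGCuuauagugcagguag
miR-18a-5p, from MIR17HG: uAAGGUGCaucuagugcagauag
miR-19a-3p, from MIR17HG: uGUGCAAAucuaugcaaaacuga
miR-19b-3p, from MIR17HG: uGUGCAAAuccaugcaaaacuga
miR-92a-3p, from MIR17HG: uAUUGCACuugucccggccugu
miR-22-3p, from MIR22HG: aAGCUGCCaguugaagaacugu
miR-31-5p, from MIR31HG: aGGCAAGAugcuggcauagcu
miR-34a-5p, from MIR34AHG: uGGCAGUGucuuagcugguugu
miR-146a-5p, from MIR3142HG: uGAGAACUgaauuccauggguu
miR-4527, from MIR4527HG: uGGUCUGCaaagagaugacugu

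The seeds tie hosts on different chromosomes together. MIR100HG (chr11:122028329-122422871, hg38, minus strand) and MIR99AHG (chr21:16070488-16631727, plus strand) carry matching clusters of a let-7, a miR-125b and a member of the miR-100 and miR-99a seed group. The let-7 seed was found in 4 hosts that reached an FPKM of 1 in any library, MIR100HG, MIR99AHG, MIRLET7BHG and MIR4458HG. MIR17HG (chr13:91347820-91354575, plus strand) is the short host of the miR-17 to miR-92a cluster, a set of microRNAs known to promote proliferation, and all 6 of its precursors overlapped an annotated exon. MIR22HG (chr17:1711504-1716272, minus strand), MIR34AHG (chr1:9148011-9182338, minus strand) and MIR3142HG (chr5:160468251-160487426, plus strand) also hold miR-22, miR-34a and miR-146a in exons. miR-34a is a known p53 target, and miR-146a is induced by NF-kB and dampens it. In MIR31HG (chr9:21454268-21559798, minus strand) and MIR4527HG (chr18:47285724-47594547, plus strand) the precursor is intronic.

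The deposited gene values are FPKM, that is fragments per unit of gene length and of mapped fragments, so levels can be compared between genes of unequal length. Most host genes had a low FPKM. An FPKM of at least 1 was reached by 22 of the 64 in at least 1 library, 24 exceeded 0 in at least 1 library but never reached 1, and 18 were listed at 0 in all 14. A low FPKM is not an absence of RNA: by the counts on repeats described further on, 8 of these 42 reached 1 CPM in some library, with MIR3936HG at 3.63 to 11.3 CPM and MIR325HG, listed at an FPKM of 0 throughout, at up to 3.07. Only 6 were at 1 or more in every library, and these were MIR4435-2HG, MIR100HG, MIR22HG, MIR31HG, MIR548XHG and MIR17HG. The 5 with the highest mean made up 84.6% of the summed mean FPKM of all 64, and MIR4435-2HG alone 43.3%.

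**Figure D1:**
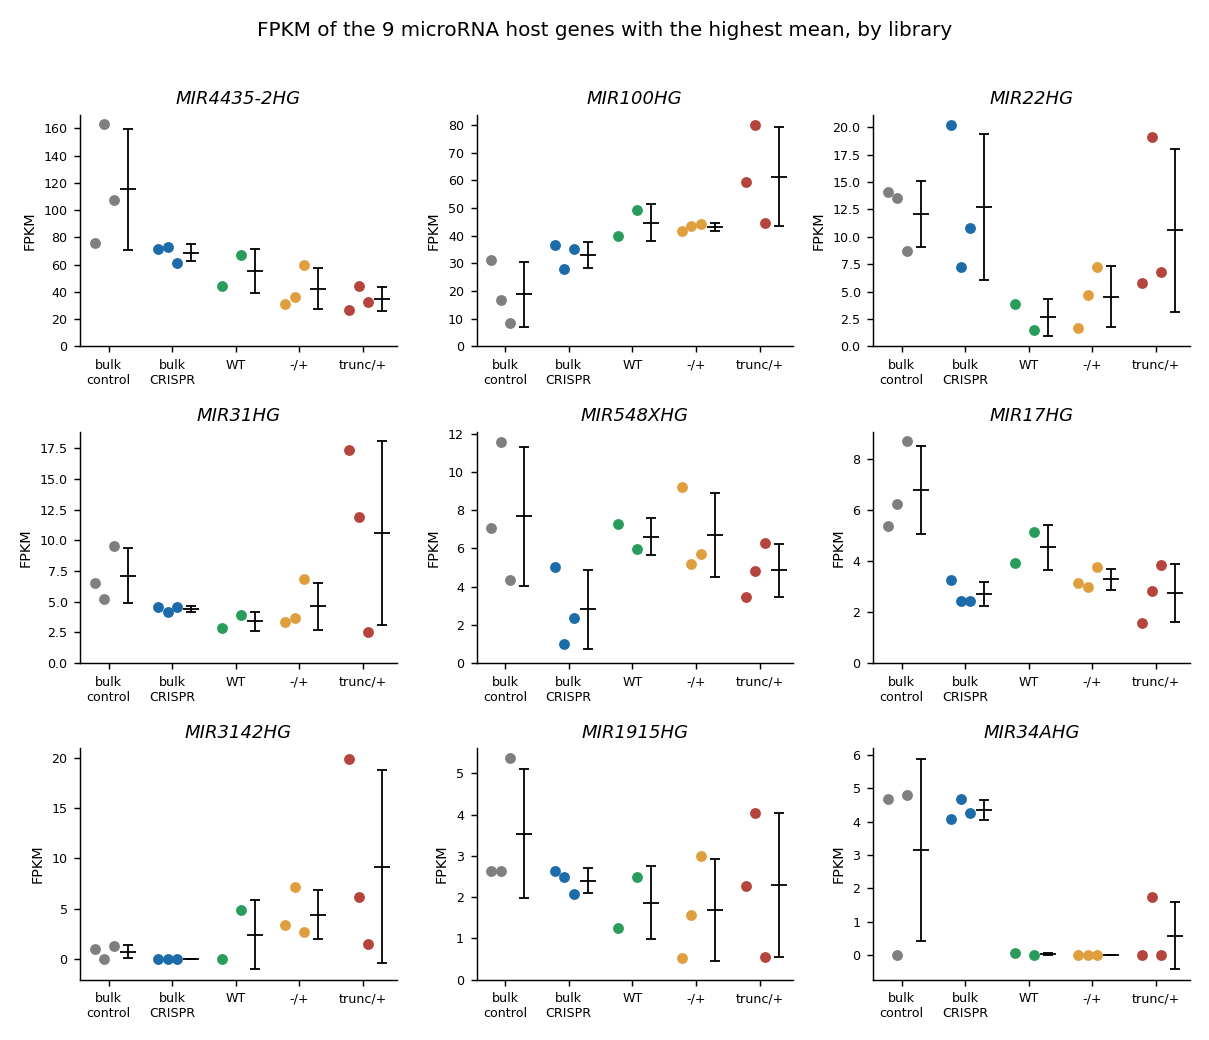
FPKM (vertical axes, linear) of the 9 microRNA host genes with the highest mean over 14 libraries, with 1 point per library and the group mean ± SD as a black bar at the right (n = 3, WT n = 2). MIR4435-2HG was highest in bulk control 2 (163 FPKM) and MIR100HG in trunc/+ clone 2 (79.98 FPKM), while MIR3142HG was listed at 0 in all 3 bulk CRISPR libraries.

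The libraries held 15615675 to 33018360 aligned fragments, with the lowest number in bulk control 3. The FPKM of Z18 itself was 38.1, 13.9 and 48.7 for bulk controls 1 to 3 but 10.4, 11.9 and 12.8 for bulk CRISPR, so bulk control 2 lay just above the edited populations. Among clones, WT gave 23.5 and 21.97 FPKM, the -/+ group 16.2, 17.1 and 16.1, and the trunc/+ group 14.3, 13.98 and 8.70. Of 10 melanocyte markers 5 reached an FPKM of 1, while MLANA, TYR and TYRP1 stayed under 0.1 in every library. The summed FPKM of those 10 was 21.9 to 37.7 in bulk control, 39.0 to 48.8 in bulk CRISPR, 133 to 373 in WT, 73.0 to 483 in -/+ and 93.3 to 435 in trunc/+. The summed FPKM of markers of other cell types also moved between bulk CRISPR and control. It was 7.58 to 9.02 against 2.60 to 3.31 for 6 fibroblast markers (COL1A2 under 0.1 throughout), mostly LUM and FAP. For 7 epithelial markers (CDH1 and KRT5 under 0.1 throughout), mostly KRT18 and KRT8, it was 416 to 541 against 717 to 1110. Not every member followed its sum. By group mean PDGFRB did not rise (0.42 against 0.47 FPKM), and KRT14 (2.96 against 2.09) and EPCAM (0.27 against 0.24) did not fall. The sum of 4 markers of dedifferentiated melanoma was 108 to 117 against 57.5 to 191, and none of 3 endothelial markers reached an FPKM of 1. The part of these differences in the results on host genes was not tested.

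The pools address whether editing Z18 in a mixed population moves host transcripts. In FPKM the largest shifts were downward in MIR17HG and MIR548XHG and upward in MIR100HG, but no host gene passed the threshold. Of 64 host genes 13 passed the filter (FPKM of 1 or more in 3 or more of the 6 libraries) and were tested with limma on log2(FPKM + 1), a scale that understates the change of low genes. At an adjusted p under 0.05 it called 0 of 13, where 0.347% of all 12114 genes were called. At an unadjusted p under 0.05 it called 4 of 13, where 20.9% of all genes were.

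MIR17HG was read at 5.39, 6.25 and 8.73 FPKM in bulk controls 1 to 3 and at 3.25, 2.43 and 2.42 in bulk CRISPR. Every edited population lay below every control. The means were 2.70 ± 0.474 against 6.79 ± 1.73 (SD, n = 3 each), with a log2 fold change of -1.06 (SE 0.25, limma adjusted p = 0.121). Without bulk control 1 it was called (-1.19, limma adjusted p = 0.0375). Calls over all genes then rose from 42 to 1327, so that call is not particular to MIR17HG.

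MIR548XHG, the host of an intronic miR-548x, was at 7.08, 11.6 and 4.37 FPKM in the controls and 5.04, 1.01 and 2.38 in bulk CRISPR. The groups overlapped, since control 3 lay below CRISPR library 1. The log2 fold change was -1.24 (SE 0.45, limma adjusted p = 0.197).

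MIR100HG, whose span also holds the gene BLID on the same strand, was at 31.3, 16.6 and 8.31 FPKM in the controls and 36.5, 27.8 and 34.99 in bulk CRISPR. Control 1 lay within the edited range, while controls 2 and 3 lay below it. The means were 33.1 ± 4.67 against 18.7 ± 11.6, with a log2 fold change of 0.96 (SE 0.41, limma adjusted p = 0.237). Without bulk control 1 it was 1.40 and called (limma adjusted p = 0.0467), in the fit that called 1327 genes, and without control 3 it was 0.51. By the counts on repeats described further on, the log2 fold change of MIR100HG was 0.37 (SE 0.29, edgeR adjusted p = 0.568).

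MIR4435-2HG, a long non-coding RNA whose exon holds miR-4435, was at 75.5, 163 and 107 FPKM in the controls and 71.7, 73.0 and 61.4 in bulk CRISPR. All 3 edited populations lay below all 3 controls, with a log2 fold change of -0.67 (SE 0.29, limma adjusted p = 0.237). CYTOR, a near copy of this gene on the same chromosome, was at 84.1, 181 and 83.95 FPKM in the controls and 81.95, 87.8 and 72.9 in bulk CRISPR. Reads of the pair may be split between them, so the level of either is uncertain.

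MIR31HG was at 6.51, 5.1998 and 9.57 FPKM in the controls and 4.53, 4.14 and 4.59 in bulk CRISPR, again with no overlap (log2 fold change -0.54, SE 0.26, limma adjusted p = 0.273). Its span holds IFNE, an interferon gene, on the same strand, so the reads of the pair may be split between them. The remaining 8 host genes tested were MIR137HG, MIR4527HG, MIR1915HG, MIR34AHG, MIR762HG, MIR193BHG, MIR181A2HG and MIR22HG, with limma adjusted p-values of 0.291 or more.

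By direction, 4 of the 13 were higher and 9 lower in bulk CRISPR, with a median log2 fold change of -0.14. Over all genes tested 64.7% were higher and the median was 0.18. With quantile scaling the medians were -0.42 over the 13 and 0.03 over all genes. With 1 library left out the host gene median ran from -0.49 to 0.02. It was lowest without control 1 (0.28 over all genes). The highest was over the 12 tested without CRISPR library 3 (0.17 over all genes). A further 7 host genes were at 1 FPKM in some bulk library but below the filter, namely MIR3142HG, MIR4453HG, MIR4458HG, MIR503HG, MIR570HG, MIR99AHG and MIRLET7BHG. The last 44 stayed under 1 in all 6 bulk libraries.

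**Figure D2:**
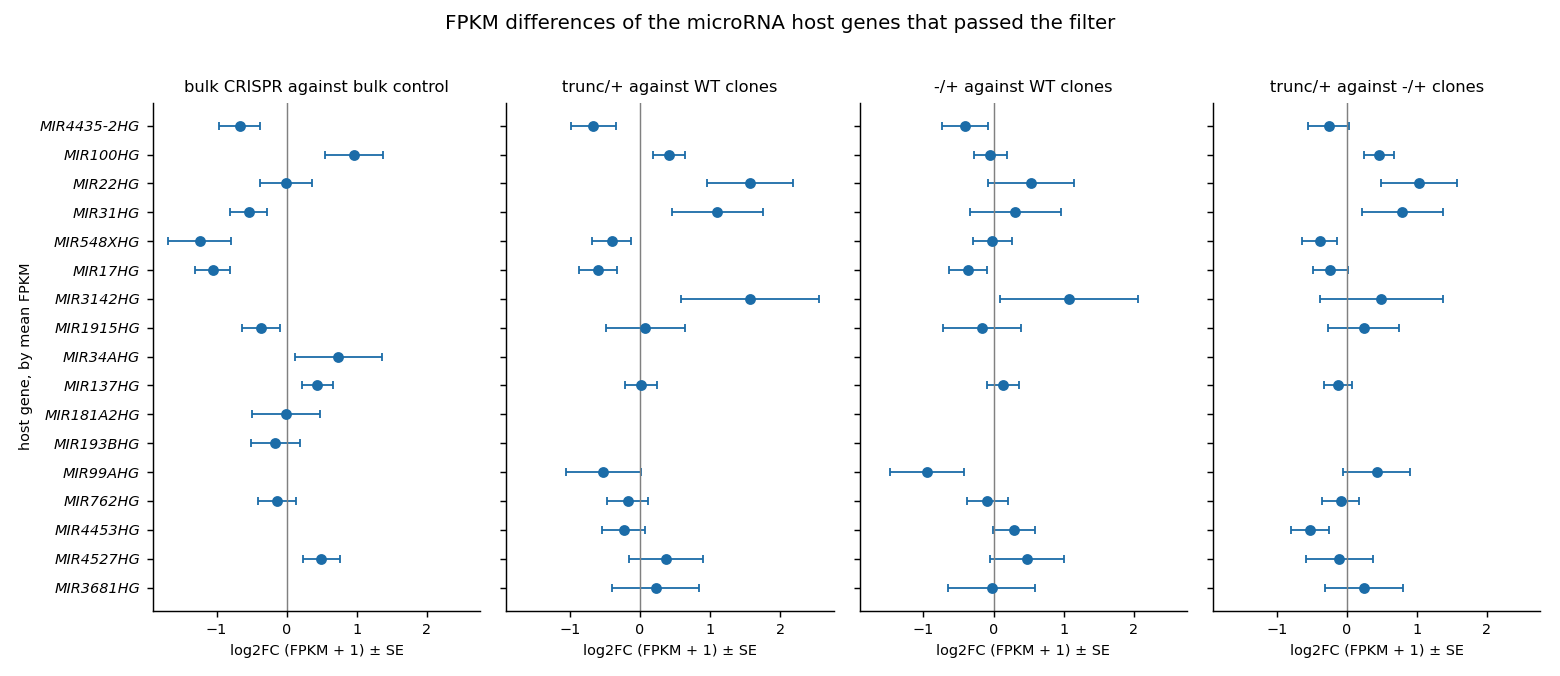
Log2 fold changes of FPKM + 1 (horizontal axes, points, with SE bars) of the microRNA host genes that passed the filter of each comparison, ordered by mean FPKM. No point passed limma's threshold. MIR17HG lies left of 0 in all 4 panels, at -1.06 in bulk CRISPR and -0.60 in trunc/+ against WT.

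Trunc/+ against WT clones asks what a truncating allele does beside a normal copy. MIR22HG and MIR31HG were higher on average and MIR17HG and MIR4435-2HG lower, but the trunc/+ clones spread widely and none passed. Limma called 0 of 14 host genes at an adjusted p under 0.05 (0.00775% of 12904 genes) and 1 of 14 at an unadjusted p under 0.05 (7.59% of genes).

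MIR22HG was at 5.82, 19.2 and 6.77 FPKM in trunc/+ clones 1 to 3 and at 3.84 and 1.46 in WT. All 3 trunc/+ clones were above both WT clones, with clone 2 far above the others. The means were 10.6 ± 7.45 against 2.65 ± 1.68, with a log2 fold change of 1.57 (SE 0.61, limma adjusted p = 0.652).

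MIR31HG was at 17.3, 11.9 and 2.49 FPKM in trunc/+ and 2.86 and 3.94 in WT, so that trunc/+ clone 3 lay below both WT clones (log2 fold change 1.10, SE 0.65, limma adjusted p = 0.699). MIR17HG was at 1.58, 2.81 and 3.87 FPKM against 3.92 and 5.16, below WT in all 3 clones (-0.60, SE 0.28, limma adjusted p = 0.658). MIR4435-2HG was at 26.7, 44.03 and 32.8 against 43.98 and 66.8 FPKM (-0.67, SE 0.33, limma adjusted p = 0.680). Its near copy CYTOR was at 34.3, 43.2 and 39.4 FPKM in trunc/+ and 50.6 and 70.7 in WT.

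MIR100HG was at 59.4, 79.98 and 44.4 FPKM in trunc/+, 39.99 and 49.4 in WT and 41.6, 43.3 and 44.3 in -/+. Its log2 fold change was 0.41 (SE 0.23, limma adjusted p = 0.698) over WT and 0.46 (SE 0.21, limma adjusted p = 0.7996) over -/+. The 3 trunc/+ clones lay above the 3 -/+ clones, with clone 3 above the highest -/+ clone by less than the spread within either group.

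-/+ against WT clones asks what loss of 1 copy does. Limma called 0 of 14 at an adjusted p under 0.05 (0.00775% of genes) and 0 at an unadjusted p under 0.05 (1.82% of genes), with adjusted p-values of 1 for all of them. The host gene with the smallest p was MIR99AHG, at 0.18, 0.24 and 0.13 FPKM in -/+ and at 3.41 and 0.18 in WT. The difference (log2 fold change -0.95, SE 0.53) rested on WT clone 1, since WT clone 2 was as low as the -/+ clones. MIR17HG was at 3.14, 2.98 and 3.76 FPKM against 3.92 and 5.16 (-0.36, SE 0.28) and MIR4435-2HG at 31.3, 35.9 and 59.5 against 43.98 and 66.8 (-0.41, SE 0.33). MIR4453HG was at 0.71, 1.01 and 1.17 FPKM against 0.59 and 0.60 (0.29, SE 0.30), all 3 -/+ clones above both WT clones.

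MIR3142HG differed widely between clones of a group. Its level was 3.41, 7.20 and 2.68 FPKM in -/+, 19.9, 6.19 and 1.46 in trunc/+ and 0 and 4.86 in WT. Against WT the log2 fold change was 1.08 (SE 0.98) in -/+, where leaving out WT clone 1 turned it to -0.20. In trunc/+ it was 1.57 (SE 0.98, limma adjusted p = 0.713). No group lay apart from another.

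In trunc/+ against -/+, limma called 0 of 14 at either p (0% and 6.28% of genes). Next to MIR100HG, the smallest p-values were those of MIR4453HG at 0.00, 0.86 and 0.33 FPKM in trunc/+ (log2 fold change -0.53, SE 0.27, limma adjusted p = 0.801), MIR22HG (1.03, SE 0.55, limma adjusted p = 0.803), MIR548XHG (-0.39, SE 0.25, limma adjusted p = 0.838) and MIR31HG (0.79, SE 0.58, limma adjusted p = 0.854). In -/+ MIR22HG was at 1.69, 4.69 and 7.23 FPKM and MIR31HG at 3.32, 3.70 and 6.84. MIR548XHG was at 3.46, 4.80 and 6.27 FPKM in trunc/+, 9.19, 5.18 and 5.72 in -/+ and 7.29 and 5.95 in WT. The groups overlapped for each of these genes.

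The other host genes tested in the clones were MIR137HG, MIR1915HG, MIR3681HG, MIR4527HG and MIR762HG. The medians over the 14 were 0.04 in trunc/+ against WT, -0.02 in -/+ against WT and 0.08 in trunc/+ against -/+, beside medians over all genes of -0.02, -0.02 and -0.00. The comparisons with WT share the 2 WT clones, so they are not independent. MIR181A2HG, MIR193BHG, MIR34AHG, MIR4458HG, MIR503HG and MIR924HG reached 1 FPKM in some clone but not the filter, and 44 host genes stayed under 1 in all 8 clones.

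Whether the bulk effect differs from that in the clones was tested directly as a difference of log2 fold changes over all 14 libraries, with 19 host genes past the filter. Against the -/+ effect limma called 0 of 19 (0.0298% of 13439 genes) and 0 at an unadjusted p under 0.05 (8.53% of genes). Against the trunc/+ effect it called 0 of 19 (0.0446% of genes) and 1 at an unadjusted p under 0.05 (8.85% of genes), which was MIR31HG at -1.65 (SE 0.71, limma adjusted p = 0.541). The bulk shift was thus not shown to differ from that in clones for any host gene.

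Bulk control against WT clones compares unedited pools with unedited clones, which gives the size of differences in these genes between cell sources without editing of Z18. MIR22HG was higher and MIR100HG lower in the pools. Limma called 2 of 19, where 15% of all 13439 genes were called, so the count among host genes is no result about them. MIR100HG was at 18.7 ± 11.6 FPKM in the controls and 44.7 ± 6.62 in WT, all 3 controls below both WT clones (log2 fold change -1.38, SE 0.39, limma adjusted p = 0.0354). By the counts on repeats described further on, it was at 32.2, 20.0 and 21.1 CPM in the controls and 31.9 and 39.5 in WT. There control 1 lay above WT clone 1, and these groups were not tested on those counts. MIR22HG was at 14.1, 13.5 and 8.66 FPKM in the controls against 3.84 and 1.46 in WT (1.89, SE 0.56, limma adjusted p = 0.0398). MIR100HG kept its call only in the fit without bulk control 1 (-1.83, limma adjusted p = 0.00283) of the 5 fits with a library left out, and went to -0.93 (adjusted p = 0.0560) without control 3 and to adjusted p = 0.0721, 0.123 and 0.180 without control 2, WT clone 1 and WT clone 2. MIR22HG kept its call only without control 3 (2.10, limma adjusted p = 0.0451), at 1.41 to 2.38 over the 5 fits, with adjusted p = 0.0596, 0.092, 0.0984 and 0.244 without controls 1 and 2 and WT clones 1 and 2. Without a WT clone the calls over all genes fell from 2015 to 99 or 51, so a call lost there is not particular to these genes. The summed melanocyte markers differed between the same groups, as given above. The sum differed mainly through SOX10, S100A1 and S100B, while MITF and PAX3 overlapped between bulk control and WT. The part of these markers was not tested.

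MIR4435-2HG (1.00, SE 0.34, limma adjusted p = 0.0623) and MIR34AHG (1.63, SE 0.63, limma adjusted p = 0.0893) came next, and MIR17HG followed at 0.48 (SE 0.28, limma adjusted p = 0.241). MIR34AHG, which is described here although its values were seen first, was at 4.66, 0 and 4.79 FPKM in the bulk controls, 4.09, 4.68 and 4.26 in bulk CRISPR and at 0 in 5 of the 8 clones, with 1.75 in trunc/+ clone 2. Without control 2 it was called (2.47, limma adjusted p = 0.0126). The other members tested in this fit were MIR137HG, MIR181A2HG, MIR1915HG, MIR193BHG, MIR3142HG, MIR31HG, MIR3681HG, MIR4453HG, MIR4458HG, MIR4527HG, MIR503HG, MIR548XHG, MIR762HG and MIR99AHG, while MIR570HG, MIR924HG and MIRLET7BHG reached 1 FPKM in only 1 library each. Over the 19 the median was 0.29, against -0.18 over all genes.

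A second readout came from transposable element (TE) copies, the repeats that fill introns and many non-coding exons. The deposited TE files count fragments per TE copy and strand. Copies lying inside a host gene and read on its strand were summed, given as CPM (estimated counts per 1000000 aligned fragments), and tested with edgeR over all genes with such copies. A TE count inside a gene can come from the host RNA, spliced or not, or from an RNA that starts in the TE, and these cannot be told apart. At least 1 count was found in 47 of the 64 host genes. The sum over all host genes was 1843 to 7376 counts per library.

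In bulk CRISPR against control edgeR called 1 of 27 host genes tested, where 0.338% of 11818 genes were called, and at an unadjusted p under 0.05 it called 6 of 27 (15.6% of genes). The gene called was MIR4527HG. It stood at 5.14, 5.61 and 4.87 CPM in the controls and at 18.6, 18.7 and 16.6 in bulk CRISPR, with no overlap and little spread in either group. The log2 fold change was 1.78 (SE 0.28, edgeR adjusted p = 0.0153), and the means were 17.9 ± 1.16 against 5.21 ± 0.377 CPM. The counts behind them were 76 to 137 in the controls and 521.5 to 583 in bulk CRISPR. Leaving out CRISPR library 1, 2 or 3 kept the size (1.76, 1.75 and 1.84) and ended the call (edgeR adjusted p = 0.128, 0.156 and 0.123). Over all genes these fits called only 6, 5 and 9, against 40 in the main fit, so a call lost there is not particular to this gene. DESeq2 called MIR4527HG too (1.78, DESeq2 adjusted p = 1.43e-06), on the same counts and in a fit that called 330 of 11818 genes. Of the 289 TE copies inside MIR4527HG only 2 overlap an exon, and these held 3.8% of its counts over 14 libraries. TE counts therefore cannot say how its RNA divides between exons and introns. The strongest copy held 12.2%.

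In the clones MIR4527HG was near 0 in 6 of 8. Its TE counts were at 17.2 CPM in -/+ clone 3 and 10.7 in trunc/+ clone 2, and at 0 to 0.27 CPM, that is 0 to 5 counts, in the other 6 clones, WT included. FPKM gave the same picture, with 1.69 in -/+ clone 3, 1.15 in trunc/+ clone 2 and a listed 0 in the other 6 clones. In bulk it ran from 0.22 to 1.18 FPKM in the controls and 0.82 to 1.68 in bulk CRISPR, where the log2 fold change was 0.49 (SE 0.26, limma adjusted p = 0.307). With 2 of 8 clones carrying the signal, and these in different groups, no group of clones differed by test (edgeR adjusted p = 0.989 for trunc/+ and 1 for -/+, against WT).

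**Figure D3:**
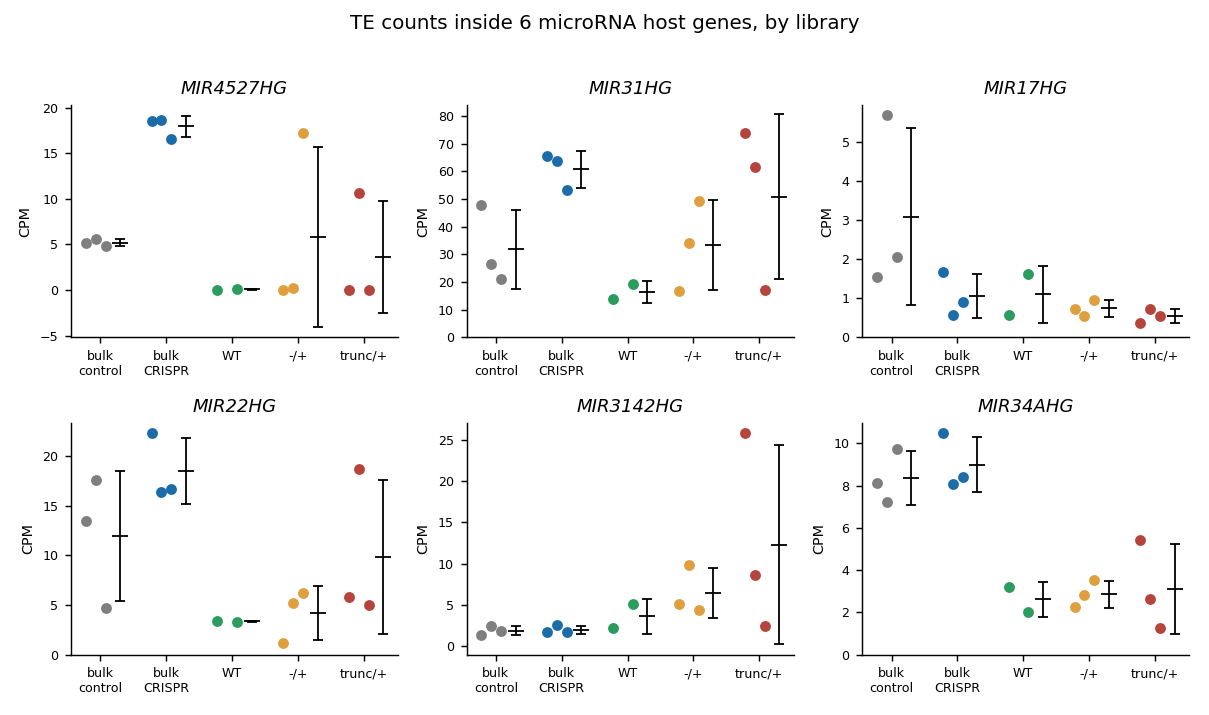
TE counts inside 6 microRNA host genes in CPM (vertical axes, linear), 1 point per library, with the group mean ± SD as a black bar (n = 3, WT n = 2). MIR4527HG is at 4.87 to 5.61 CPM in bulk control, at 16.6 to 18.7 in bulk CRISPR, and near 0 in all clones but -/+ clone 3 and trunc/+ clone 2.

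For MIR17HG the TE readout went the same way as FPKM. It rests on a single AluSx copy in an exon (chr13:91352827-91353136), at 1.54, 5.67 and 2.05 CPM in the controls and 1.67, 0.58 and 0.91 in bulk CRISPR (log2 fold change -1.55, SE 0.53, edgeR adjusted p = 0.189). Control 2 stood far above the rest, and control 1 lay below CRISPR library 1. Without control 1 it was -1.89 and called (edgeR adjusted p = 0.0457), and without control 2 it was -0.76 (edgeR adjusted p = 0.544). Without control 1 the calls by TE counts over all genes rose from 40 to 962.

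For MIR31HG it went the other way. TE counts inside the gene were at 48.0, 26.4 and 21.0 CPM in the controls and 65.6, 63.6 and 53.1 in bulk CRISPR, with no overlap (log2 fold change 0.93, SE 0.33, edgeR adjusted p = 0.196). Only 3 of the 109 TE copies in MIR31HG overlap an exon, and these held 9.2% of its TE counts. The exonic copies were at 3.49, 1.89 and 1.79 CPM in the controls and 3.27, 4.26 and 3.56 in bulk CRISPR. They thus did not fall as FPKM did. The FPKM of MIR31HG was lower in all 3 edited populations, and why the readouts differ was not tested. Its 2 strongest copies, an L2a (chr9:21511607-21512031) and a MIRb, which is a mammalian-wide interspersed repeat and not a microRNA, lie 83 and 697 bases past the miR-31 precursor and held 20.1% and 13.3% of the counts. Copies within 1000 bases of that precursor summed to 24.4, 10.2 and 9.35 CPM in the controls and 23.8, 19.5 and 18.9 in bulk CRISPR, so close to the hairpin control 1 was as high as the edited populations. This window was chosen after the values were seen.

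Differences of opposite sign in the readouts were also found for MIR4435-2HG and MIR548XHG in bulk. MIR4435-2HG was at 10.2, 9.69 and 7.30 CPM in the controls and 16.0, 14.6 and 12.7 in bulk CRISPR (log2 fold change 0.67, SE 0.28, edgeR adjusted p = 0.271), while its FPKM was lower. MIR548XHG had a TE log2 fold change of 0.40 (SE 0.32, edgeR adjusted p = 0.583). Of 13 host genes measured both ways, 7 had the same sign in bulk, 10 in trunc/+ against WT, 9 in -/+ against WT and 12 in trunc/+ against -/+. The readouts come from the same libraries and are not independent.

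**Figure D4:**
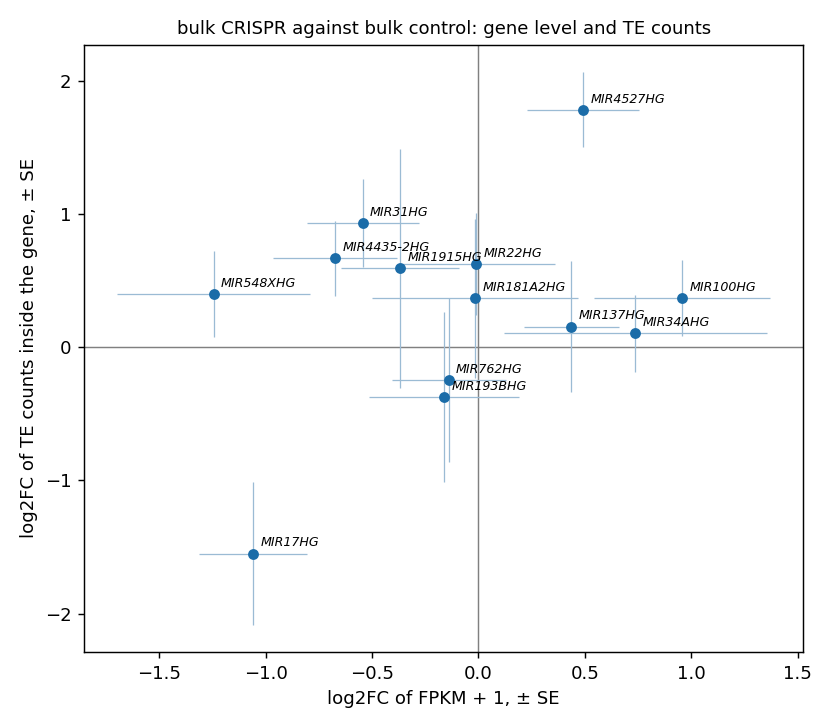
Log2 fold changes in bulk CRISPR against bulk control of FPKM + 1 (horizontal axis) and of TE counts inside the gene (vertical axis) for the 13 host genes measured both ways, with SE bars. MIR17HG is low on both axes (-1.06 and -1.55), while MIR31HG is lower in FPKM (-0.54) and higher in TE counts (0.93).

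MIR181A1HG, the host of a miR-181 pair and never at 1 FPKM, was at 3.11, 1.08 and 0.70 CPM in the controls and 4.09, 3.78 and 3.56 in bulk CRISPR (log2 fold change 1.18, SE 0.46, edgeR adjusted p = 0.237). The groups did not overlap, but control 1 lay close to the edited libraries, and without it the rise was called (2.08, edgeR adjusted p = 0.0120). MIR31HG was called without control 1 as well (1.36, edgeR adjusted p = 0.0163). In that fit 962 of all genes were called, against 40 in the main fit, so these calls are not particular to host genes. The median over the 27 host genes was 0.10, against 0.03 over all genes.

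In the clones edgeR called 0 of 26 host genes in each comparison (0% of 12549 genes). DESeq2 with either scaling also called 0 of the host genes, while over all genes it called 18 and 14 in trunc/+ against WT, 6 and 6 in trunc/+ against -/+ and 0 in -/+ against WT. At an unadjusted p under 0.05, edgeR called 1 of 26 each in trunc/+ against WT (4.86% of genes), in -/+ against WT (1.86%) and in trunc/+ against -/+ (4.38%). The 3 genes were MIR31HG, MIR99AHG and MIR181A2HG.

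MIR31HG was at 73.7, 61.5 and 17.2 CPM in trunc/+, 13.7 and 19.3 in WT and 16.7, 34.2 and 49.2 in -/+. Trunc/+ clone 3 lay between the WT clones (log2 fold change of trunc/+ over WT 1.62, SE 0.60, edgeR adjusted p = 0.989). For MIR22HG, read from 1 exonic L1ME4a copy (chr17:1711538-1712277), the values were 5.78, 18.7 and 4.98 CPM in trunc/+, 3.39 and 3.32 in WT and 1.17, 5.18 and 6.24 in -/+. Clone 2 of trunc/+ again stood apart (over WT 1.55, SE 0.71, edgeR adjusted p = 0.989).

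MIR3142HG was at 25.9, 8.62 and 2.45 CPM in trunc/+, 2.09 and 5.06 in WT and 5.03, 9.87 and 4.31 in -/+ (trunc/+ over WT 1.78, SE 0.81, edgeR adjusted p = 0.989). The bulk libraries held 1.35 to 2.47 CPM, or 27 to 77 counts, although its FPKM was listed at 0 in all 3 CRISPR libraries and in control 2. A listed FPKM of 0 thus went with TE counts on the host strand. The same held for MIR34AHG, with 134 TE counts (7.23 CPM) in bulk control 2, where its FPKM was 0. Read by TE counts, MIR34AHG was at 7.23 to 9.73 CPM in the controls, 8.07 to 10.5 in bulk CRISPR and 1.24 to 5.42 in the clones, with no library of the pools as low as any clone.

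MIR99AHG was at 7.45 CPM in WT clone 1 but 0.84 in WT clone 2, while the -/+ clones had 0.64, 1.60 and 0.59 CPM and the trunc/+ clones 2.21, 0.94 and 1.10. As in FPKM, WT clone 1 alone set the difference (log2 fold change of -/+ over WT -2.14, SE 0.79, edgeR adjusted p = 1), which turned to 0.16 without that clone. MIR181A2HG was at 0.85, 0.79 and 0.21 CPM in trunc/+ and 1.49, 1.07 and 1.88 in -/+, with no overlap (-1.25, SE 0.55, edgeR adjusted p = 0.997). It lies antisense to NR6A1.

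The precursors have rows of their own in the gene tables, all 93 of them. An FPKM of 1 was reached by 12 in any library, and these rows are short, which makes their values unstable. The let-7b row was at 10.6 in bulk control 3 and at no more than 0.77 elsewhere, and the let-7a-2 row, inside MIR100HG, ran from 0.31 to 8.05.

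The machinery that acts on host RNAs was read from a list of 28 genes, of which 27 passed the filter in each comparison. Limma called 0 of 27 in each comparison within bulk or clones and in both differences of effects. At an unadjusted p under 0.05 it called 4 in bulk CRISPR against control (20.9% of genes), 3 in trunc/+ against WT (7.59%), 0 in -/+ against WT (1.82%), 2 in trunc/+ against -/+ (6.28%) and 3 in each difference of effects (8.53% for -/+ and 8.85% for trunc/+). The median in bulk CRISPR was 0.45 against 0.18 over all genes, with AGO3 (0.68, limma adjusted p = 0.163), TNRC6C (0.62, limma adjusted p = 0.164) and SRRT (0.69, limma adjusted p = 0.183) at the smallest p. Bulk control 2 stood apart in this list. Its FPKM was 1.11 for DGCR8 against 9.07 and 10.8 in controls 1 and 3, and 1.31 for DICER1 against 4.36 and 4.16. Without control 2 the list's median was 0.16, against 0.08 over all genes. Hosts under other names, described further on, also had a raised median in bulk CRISPR (0.35, and 0.14 without control 2). In bulk control against WT the medians were -0.49 for the machinery genes and -0.40 for those hosts, against -0.18 over all genes. AGO3 is an Argonaute and TNRC6C a silencing partner of Argonautes. SRRT stood at 58.9, 35.3 and 42.97 FPKM in the controls and 75.4, 66.1 and 77.2 in bulk CRISPR, with no overlap.

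In trunc/+ the smallest p-values over WT were those of XPO5, which exports precursors from the nucleus (-0.38, limma adjusted p = 0.612), TNRC6A (-0.32, limma adjusted p = 0.652) and ZSWIM8, which directs Argonaute decay (0.34, limma adjusted p = 0.656). Over -/+ they were TNRC6A (-0.45, limma adjusted p = 0.785), ZSWIM8 (0.35, limma adjusted p = 0.788) and LIN28B, which blocks let-7 maturation (-0.57, limma adjusted p = 0.7996). In -/+ over WT they were HNRNPA1 (-0.29), TNRC6B (0.33) and SRRT (0.23), each with a limma adjusted p = 1. In the differences of effects they were AGO3 (0.76), TNRC6C (0.65) and AGO4 (0.64) for -/+, each with a limma adjusted p = 0.575, and NCBP1 (0.84, limma adjusted p = 0.513), TNRC6A (0.96, limma adjusted p = 0.523) and TNRC6C (0.60, limma adjusted p = 0.547) for trunc/+. Between bulk control and WT 3 of 27 were called (15% of all genes): TARBP2, a partner of DICER1, was higher in the pools (0.81, limma adjusted p = 0.0285), and AGO4 (-0.74, limma adjusted p = 0.0375) and TUT4, which adds uridines to let-7 precursors (-1.28, limma adjusted p = 0.0387), were lower.

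MicroRNA hosts with other names, mostly protein-coding, were read from a further list. Of 32 listed, 27 were tested in bulk and 28 in the other fits, and limma called 0 in every comparison but bulk control against WT. There it called 2 of 28 (15% of all genes), both lower in the pools, CTDSP2 (-1.63, limma adjusted p = 0.0212) and PANK3 (-0.92, limma adjusted p = 0.0249), with HUWE1 next (-1.26, limma adjusted p = 0.0529). In bulk CRISPR the smallest p-values were those of TLN2 (1.36, limma adjusted p = 0.117), MEST (0.87, limma adjusted p = 0.133) and NFYC (0.94, limma adjusted p = 0.136), with 4 of 27 at an unadjusted p under 0.05 (20.9% of genes). In trunc/+ MCM7, a replication helicase subunit that hosts the miR-106b cluster, was at 135, 138 and 129 FPKM, below the 172 and 200 of WT and the 168, 175 and 186 of -/+ (over WT -0.47, limma adjusted p = 0.547). COPZ1 and HUWE1 followed in trunc/+ over WT (-0.36 and -0.39, limma adjusted p = 0.612 and 0.652), with 4 of 28 at an unadjusted p under 0.05 (7.59% of genes). Over -/+ they were MCM7 (-0.39, limma adjusted p = 0.785), EGFL7 (0.53, limma adjusted p = 0.788) and SMC4 (-0.33, limma adjusted p = 0.790). In -/+ over WT they were COPZ1 (-0.19), NFYC (0.25) and SREBF1 (0.24), each with a limma adjusted p = 1 and none at an unadjusted p under 0.05. In the differences of effects they were TLN2 (1.46), NFYC (0.69) and MCM7 (-0.56) for -/+ and NFYC (0.81), SREBF1 (-1.24) and TLN2 (1.27) for trunc/+, with limma adjusted p-values of 0.514 to 0.583.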

How the data were processed

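RNA from 14 A375 libraries was analysed. The study's methods name SQuIRE on hg38 for these libraries. The gene tables have the columns of a StringTie abundance file, whose settings are not given in the sources used here, and the submitters' processing notes name cutadapt 4.6. The deposited gene files hold FPKM and TPM, in which the depth behind a gene is unknown. The deposited TE files hold estimated counts, shared out over multiply mapped fragments, and counts of uniquely mapped and of aligned fragments per library, which set the counting precision. Rows of a symbol were added up, and log2(FPKM + 1) was tested with limma 3.58.1 (trend, R 4.3.3) for genes at 1 FPKM or more in 3 libraries (bulk) or 2 (clones, all 14). Estimated counts were rounded and tested with edgeR 4.0.16 (quasi-likelihood), with aligned fragments as library size and a minimum count of 10. DESeq2 1.42.0 was an alternative. P-values were adjusted by Benjamini-Hochberg over all genes, with 0.05 as threshold, and fits were tested on simulated data. Clones share 1 estimate of the spread. No column lacked a sample (0). Groups came from the labels. Host genes that passed a filter are named. Values per library are given for those called, the 5 smallest p in each comparison within bulk or clones and the 5 highest means. For the other lists the genes called and the 3 smallest p are named. The members and lists were chosen with earlier results of these data known. Alternatives were another pseudocount, no filter, TPM, quantile or TMM scaling, 1 row per symbol, unique counts, a replicate block and 1 library left out. The sum over a further list of cell type markers is not reported here.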

Additional observations from a re-analysis of the deposited data

How the results depend on the processing

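Calls among host genes changed mainly with single libraries. With 1 library left out the number called ran from 0 to 2 in bulk CRISPR (2 without control 1), from 0 to 2 in bulk control against WT and from 0 to 5 for TE counts in bulk CRISPR (5 without control 1, 0 without any 1 CRISPR library). Over all genes, limma called 1327 of 11904 in bulk CRISPR without control 1. By TE counts edgeR called 962 of 12608 without control 1, but only 6, 5 and 9 without CRISPR library 1, 2 and 3. The counts among host genes thus moved with those over all genes. In bulk control against WT 1 was called with no filter on low values, which was MIR181A1HG (1501 of 21332 genes were called). With TPM 1 was called, which was MIR100HG (1918 of 14898 genes), and with the replicate block 0 (1171 of 13439 genes). With no filter on low counts 3 were called by TE counts in bulk CRISPR (509 of 19374 genes). After centring on group means, correlations of same-numbered bulk libraries were -0.169, -0.216 and 0.176. Those of same-numbered clones ran from -0.551 to 0.509. With so few libraries per group these values cannot exclude a pairing by replicate number. The block left the other counts of called host genes as they were, while calls over all genes in bulk CRISPR rose from 42 to 220 by limma. For the processing genes the range with 1 library left out was 0 to 2 in bulk CRISPR and 0 to 12 in bulk control against WT. It was 0 to 2 in the bulk less trunc/+ difference, where 238 of 13393 genes were called without control 1. In bulk control against WT 1 processing gene was called with no filter and 0 with the replicate block, beside the totals given above. For hosts under other names the range with 1 library left out was 0 to 3 in bulk CRISPR and 0 to 7 in bulk control against WT. In the latter 5 were called with TPM (1918 of 14898 genes) and 5 with quantile scaling (1756 of 13439 genes). Among the single genes with values, signs turned only without WT clone 1. The lowest and highest values with 1 library left out were -0.20 and 2.35 for MIR3142HG in -/+ against WT, -2.38 and 0.76 for MIR99AHG TE counts in trunc/+ against WT, and -2.99 and 0.16 for them in -/+ against WT. Fits without a WT clone assume that the lone WT clone varies like the other groups. Causes were not tested. FPKM carries no depth, so the counting error of low host genes could not be estimated here. Over all genes, 42 were called by limma in bulk CRISPR, against 20 with a pseudocount of 0.1, 16 with no filter, 26 with TPM, 73 with quantile scaling (25 higher and 48 lower, against 23 and 19), 220 with the replicate block and 1327 without control 1. EdgeR called 40 by TE counts, against 30 with TMM, 330 and 321 with DESeq2 (178 and 126 of them higher), 509 with no filter, 86 with the replicate block and 962 without control 1. In bulk control against WT 2015 were called, 3690 without control 1 and 99 or 51 without a WT clone, and the split was 709 higher and 1306 lower, 398 and 1520 with TPM, and 847 and 909 with quantile scaling.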
